A study of Homo sapiens with 4 samples.

Results

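The 54 genes described here encode the machinery that copies DNA and the factors that restore methylation and chromatin on the new strand. They were taken as a named list of origin recognition, helicase, polymerase, clamp, fork, nucleotide supply, maintenance methylation and chromatin assembly genes, together with *E2F1*, by a rule that uses no measured value, although the list was drawn up with earlier results of these data known. All 54 were found among the 58522 genes listed in the deposited table, and all 54 were among the 16158 genes with enough counts to be tested. The libraries are RNA-seq of Ishikawa cells, a human cell line derived from an endometrial adenocarcinoma and used as a model of endometrial epithelium. The control group was 2 libraries of cells given a negative control short hairpin RNA (shRNA), and the *CDYL*-sh group was 2 libraries of cells given shRNA against *CDYL*, a chromodomain protein that binds methylated histone H3. The *CDYL* hairpin was carried on a plasmid that also encodes ZsGreen and puromycin resistance and was driven by the U6 promoter. Both groups were otherwise the same cell line, and the labels do not say whether libraries labelled as one group were grown as separate cultures. The *CDYL*-sh libraries are titled sh1 and sh2, here replicates 1 and 2, and the study lists several *CDYL* hairpins under names of this form, so these libraries may carry different hairpins rather than repeat one. A difference between hairpins and a difference between replicates cannot be told apart here. The p-values therefore measure only the spread between these libraries, which may be technical.

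DNA replication starts where the origin recognition complex (ORC) recruits CDC6 and CDT1, which load rings of MCM2 to MCM7 onto DNA in G1. In S phase the DBF4-CDC7 kinase, CDC45 and the GINS complex turn each ring into the active CMG helicase, polymerase alpha with its primase lays down primers, and the RFC clamp loader places PCNA rings that hold the copying polymerases on DNA. Behind the fork, UHRF1 recognizes CpG sites methylated on the old strand only and brings in DNMT1 to methylate the new strand, while CAF-1 deposits histones. Many of these genes are induced together by E2F factors as cells enter S phase, and in the cycling endometrium this programme is active in the proliferative phase.

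The promoters of 6 members are shown because these members had the smallest adjusted p-values in each direction. They are RefSeq sequences of GRCh38.p14, read 5′ to 3′ on the strand of the gene, and run from 150 bases before the start of transcription to 30 bases from it. Capitals mark the letters of an E2F site (TTTCCCGC, TTTCGCGC, TTTGCCGC or TTTGGCGC) or of a CCAAT box, on either strand. The first group is of members that were lower in *CDYL*-sh, namely *UHRF1* at chr19:4909351-4909530 (+ strand), *MCM2* at chr3:127598261-127598440 (+ strand) and *GINS1* at chr20:25407523-25407702 (+ strand).
UHRF1: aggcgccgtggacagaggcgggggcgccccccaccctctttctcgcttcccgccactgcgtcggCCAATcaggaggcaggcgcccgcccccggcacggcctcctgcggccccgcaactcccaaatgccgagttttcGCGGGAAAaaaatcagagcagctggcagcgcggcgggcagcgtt
MCM2: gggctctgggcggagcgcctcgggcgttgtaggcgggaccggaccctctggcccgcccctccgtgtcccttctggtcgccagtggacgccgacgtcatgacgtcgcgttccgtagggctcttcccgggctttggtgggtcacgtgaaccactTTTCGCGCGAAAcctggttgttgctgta
GINS1: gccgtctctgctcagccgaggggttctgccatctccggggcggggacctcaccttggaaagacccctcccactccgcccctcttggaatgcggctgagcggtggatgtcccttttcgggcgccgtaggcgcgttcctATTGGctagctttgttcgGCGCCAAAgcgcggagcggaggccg

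The second group is of members that were higher in *CDYL*-sh, namely *RFC1* at chr4:39366333-39366512 (- strand), *DBF4* at chr7:87876343-87876522 (+ strand) and *POLA1* at chrX:24693768-24693947 (+ strand).
RFC1: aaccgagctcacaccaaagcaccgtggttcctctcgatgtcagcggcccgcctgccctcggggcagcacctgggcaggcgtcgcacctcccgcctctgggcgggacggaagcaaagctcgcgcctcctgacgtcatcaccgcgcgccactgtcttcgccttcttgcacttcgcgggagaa
DBF4: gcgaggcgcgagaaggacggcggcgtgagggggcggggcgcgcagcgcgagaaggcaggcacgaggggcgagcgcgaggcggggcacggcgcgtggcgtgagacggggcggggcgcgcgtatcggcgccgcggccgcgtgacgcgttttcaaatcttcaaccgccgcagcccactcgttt
POLA1: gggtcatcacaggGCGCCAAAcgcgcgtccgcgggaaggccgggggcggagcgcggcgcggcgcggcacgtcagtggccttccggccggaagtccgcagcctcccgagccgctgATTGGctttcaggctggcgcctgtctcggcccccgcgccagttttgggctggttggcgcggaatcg

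Each of the 3 promoters of lower members held the E2F letters. In *MCM2* they form a pair of overlapping matches whose first bases are at positions 3 and 7 from the start of transcription, in *GINS1* the match begins at position 6, and in *UHRF1* it begins at position -14. Of the higher members shown, *POLA1* held a match, which begins at position -137, and *RFC1* and *DBF4* held neither motif in this stretch. Over the full RefSeq windows, from 250 bases before to 50 bases after the start, 48 of the 54 members had a promoter. The E2F letters occurred in 21 of these 48 (43.8%), against 5.3% of the 11574 tested genes with a window and 3.37% of all 27305 windows. They were in 5 of 7 lower members, 3 of 8 higher members and 13 of 33 members that did not pass the test. The members without a window were the lower members *MCM4*, *MCM5* and *GINS4* and, of those that did not pass, *POLD3*, *RPA2* and *RPA3*. The higher member *MCM6* held 4 matches, and the lower members *CDC45* and *TIMELESS* held 0. Whether these letters go with the direction of change was not tested. CCAAT was found in 54.2% of the members' windows and 36.7% of those of tested genes, and the GC box letters GGGCGG in 72.9% and 72.5%. The letters are a description of sequence, and no binding was measured.

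*CDYL* itself was measured at 50.4 and 53.0 CPM (read counts relative to library size, scaled between libraries by TMM) in the control libraries and at 11.4 and 9.70 in the *CDYL*-sh libraries. Its transcript fell to 20.6% of the control level (log2 fold change -2.28, SE 0.13, adjusted p = 4.26e-09, edgeR quasi-likelihood test with Benjamini-Hochberg adjustment over all tested genes). Total counts per library ranged from 22341852 to 27688447, and members held 118 to 12870.8 counts in a library, so counting error was small for most of them. The cells had the transcripts of an epithelial line: all 10 epithelial markers were detected, with a summed level of 2633 to 2881 FPKM (a level relative to transcript length and library size), while 8 stromal markers summed to 4.46 to 6.99 FPKM, with *COL3A1* and *DCN* at 0 in all 4 libraries. Immune markers summed to 6.16 and 8.78 FPKM in control and 15.2 and 12.3 in *CDYL*-sh, nearly all of it *CD68*, with *CD3E* at 0, and 6 endothelial markers summed to 0.98 to 2.12 FPKM. Their part in the results below was not tested.

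The 54 genes did not move as a block in *CDYL*-sh cells. The transcripts of 8 members rose, 10 fell and 36 did not pass the test. The genes that fell were *UHRF1*, *GINS1*, *MCM2*, *GINS4*, *TIMELESS*, *CDC45*, *GINS2*, *MCM4*, *TYMS* and *MCM5*, most of them parts of the replicative helicase. The genes that rose were *ORC3*, *POLA1*, *RFC1*, *DBF4*, *MCM10*, *ORC4*, *RFC4* and *MCM6*, which serve origin recognition, helicase activation, priming and clamp loading, except that *MCM6* is itself a subunit of the helicase ring. Members past the test were 33.3% of the list, against 25.7% of all tested genes. By direction, 14.8% of the members were higher, against 13.6% of tested genes, and 18.5% were lower, against 12.1%. Members were expressed above most genes, with a median mean level of 72.2 CPM against 15.9 CPM for all tested genes. Among the 9467 genes whose mean reached 10 CPM, which took in 53 members, 32.1% passed the test, 15.4% higher and 16.7% lower, and the members' shares lay near those of genes of like level.

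The median log2 fold change of the members was -0.125, beside 0.01 for all tested genes. Of the members, 35 had a value below 0 and 19 a value above it. The changes were modest: *ORC3* alone exceeded 2-fold and 7 members exceeded 1.5-fold. Summed over the 54 genes, the level was 6155.5 and 5914.9 CPM in control and 5539.5 and 5407.9 CPM in *CDYL*-sh. Both *CDYL*-sh sums lay below both control sums. For single genes, the CPM of the groups did not overlap in 45 of 54 members (83.3%), 30 of them below control and 15 above. Of tested genes, 64.3% had groups that did not overlap. Members past the test were picked on these same counts, so groups that lie apart in them are description and no further support. An exact permutation test of 2 libraries against 2 cannot give a two-sided p below 0.333, so all calls rest on the spread shared across genes in the edgeR model. In bulk RNA, fewer cells in S phase and less of a transcript per cell cannot be told apart.

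**Figure D1:**
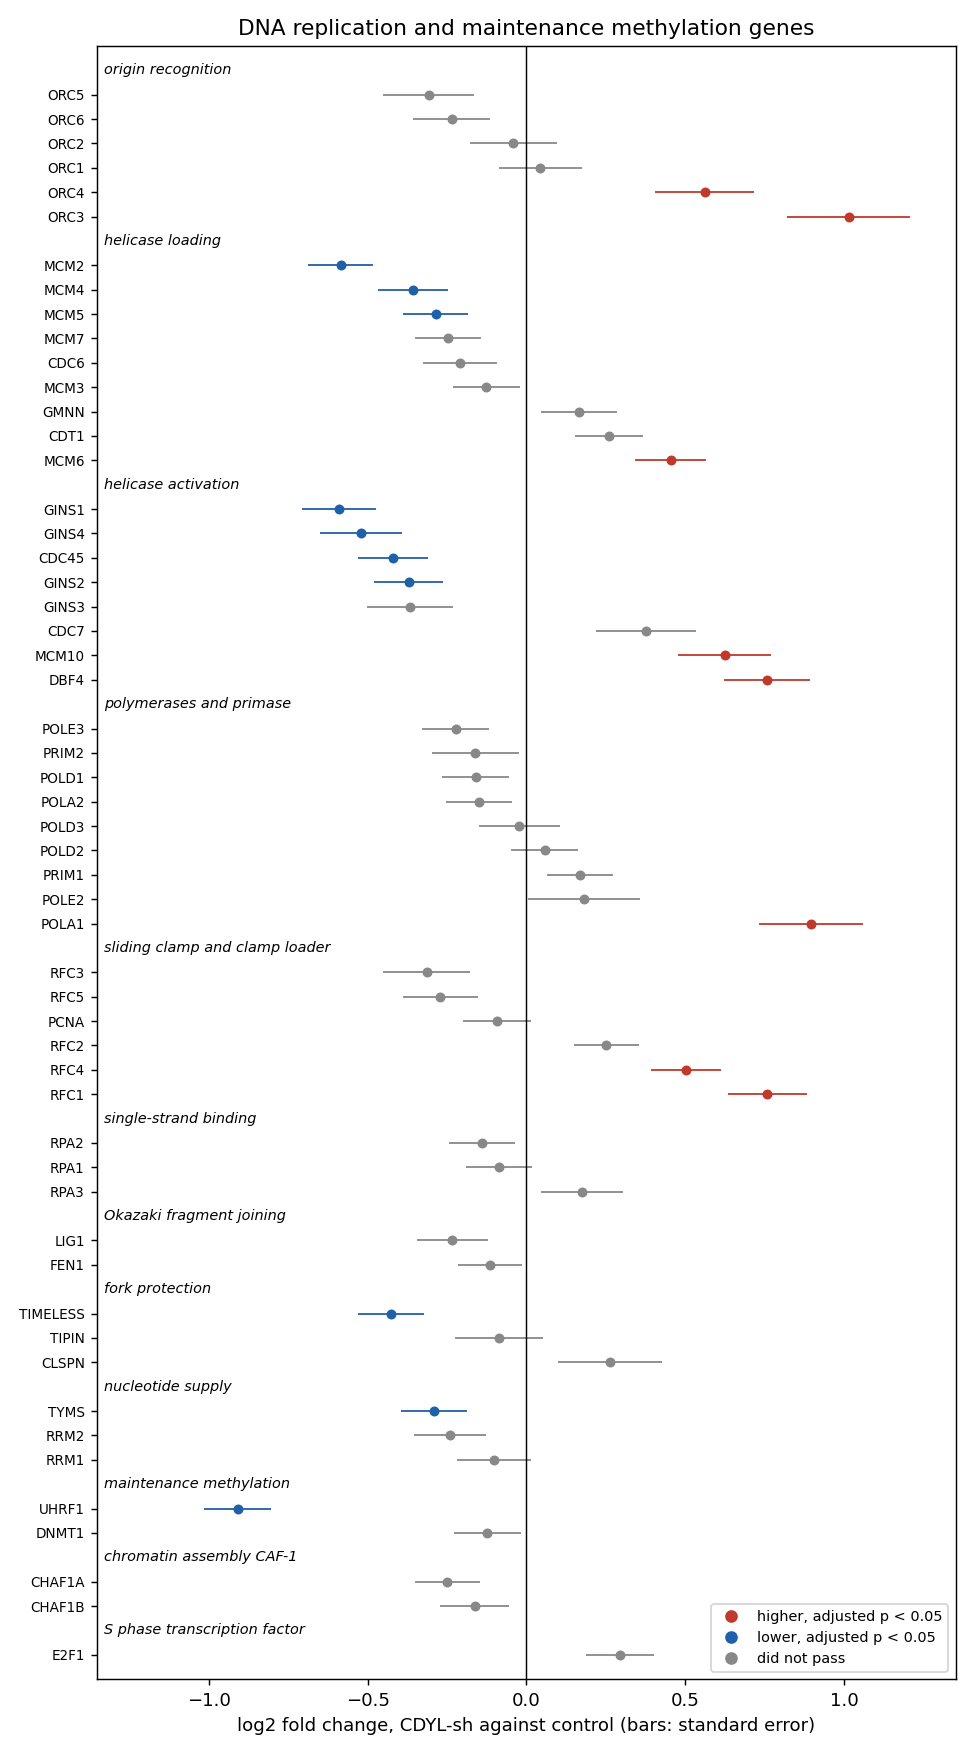
The log2 fold change of each of the 54 members in *CDYL*-sh against control, with bars of 1 standard error (edgeR), grouped by role. The 10 lower members reach from -0.29 to -0.91 and include 3 of 4 GINS subunits, and the 8 higher members reach from 0.45 to 1.01.

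Among the maintenance methylation genes, *UHRF1* gave the strongest decrease of all members. The gene (ENSG00000276043, chromosome 19, 4903080 to 4962154, + strand, GRCh38) was at 163.2 and 168.4 CPM in control and 92.98 and 83.52 CPM in *CDYL*-sh. Every control value lay far above both *CDYL*-sh values, and the level fell to 53.3% of control (log2 fold change -0.91, SE 0.11, adjusted p = 1.13e-05, edgeR). Per length the same order held, with 47.5 and 48.1 FPKM in control and 27.3 and 23.8 FPKM in *CDYL*-sh. Its counts were not whole numbers in any library, as happens in an estimated count where reads are shared out between features. *DNMT1*, the methyltransferase that UHRF1 recruits, was at 349.4 and 330.6 CPM in control and 325.2 and 298.7 CPM in *CDYL*-sh, and its value of -0.12 (SE 0.11) on the log2 scale did not pass the test (adjusted p = 0.416, edgeR). The FPKM of *UHRF1* was 0.379 and 0.384 times that of *DNMT1* in the control libraries and 0.211 and 0.200 times in the *CDYL*-sh libraries.

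The 11 genes of the CMG helicase (*MCM2* to *MCM7*, *CDC45* and *GINS1* to *GINS4*), a grouping made with the values known, comprised 7 lower, 1 higher and 3 members that did not pass, with a median log2 fold change of -0.37. The remaining 43 members had 7 higher, 3 lower and 33 not passed, with a median of -0.09. Of all tested genes 13.6% were higher and 12.1% lower, and of those whose mean reached 10 CPM 15.4% and 16.7%. Since the values guided the grouping, its counts are a description and no test. They are those of the main fit. With the offsets for GC content and length described below, *MCM5* lost its call and *GINS3* was lower. Outside the helicase, *ORC5*, *ORC6*, *CDC6*, *PCNA*, *RFC3*, *RFC5* and *RRM2* were then lower as well. *RFC2*, *E2F1* and *CDT1* were then higher, and *ORC4* lost its call. In the GINS complex, which links the MCM ring to CDC45, 3 of 4 subunits fell. *GINS1* (ENSG00000101003, chromosome 20, 25391008 to 25452700, + strand) was at 58.95 and 52.72 CPM in control and 38.85 and 35.26 CPM in *CDYL*-sh (log2 fold change -0.59, SE 0.12, adjusted p = 0.00132, edgeR). *GINS4* was at 32.24 and 36.17 CPM in control and 25.60 and 21.98 CPM in *CDYL*-sh (log2 fold change -0.52, SE 0.13, adjusted p = 0.0065). *GINS2* was at 64.73 and 64.21 CPM in control and 51.13 and 48.49 CPM in *CDYL*-sh (log2 fold change -0.37, SE 0.11, adjusted p = 0.0176). In each of these genes both *CDYL*-sh libraries were below both control libraries. *GINS3* had nearly the same value as *GINS2*, -0.37 (SE 0.13), from 23.66 and 22.46 CPM in control and 18.82 and 16.86 CPM in *CDYL*-sh, and just missed the threshold (adjusted p = 0.0522). *CDC45*, the third component of the helicase, fell as well, from 98.12 and 93.07 CPM to 76.66 and 66.16 CPM (log2 fold change -0.42, SE 0.11, adjusted p = 0.00899).

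The MCM ring, the motor of the helicase, was split. *MCM2* (ENSG00000073111, chromosome 3, 127598410 to 127622436, + strand) was at 326.7 and 332.9 CPM in control and 222.9 and 217.1 CPM in *CDYL*-sh (log2 fold change -0.58, SE 0.10, adjusted p = 0.000475, edgeR). *MCM4* was at 347.5 and 314.6 CPM against 276.1 and 241.0 CPM (log2 fold change -0.36, SE 0.11, adjusted p = 0.0232). *MCM5* was at 157.6 and 162.1 CPM against 133.9 and 128.3 CPM (log2 fold change -0.29, SE 0.10, adjusted p = 0.0451). These subunits had lower values in both *CDYL*-sh libraries than in either control. *MCM6*, another subunit of the same ring, rose from 70.62 and 59.42 CPM to 90.05 and 88.09 CPM (log2 fold change 0.45, SE 0.11, adjusted p = 0.00621). *MCM7* (-0.25, SE 0.10, adjusted p = 0.0868) and *MCM3* (-0.13, SE 0.10, adjusted p = 0.406) did not pass. The subunits stand in equal number in the ring, and their transcripts did not: *MCM7* had the highest FPKM and *MCM6* the lowest in all 4 libraries. *MCM7* was at 191.1 and 194.9 FPKM in control and 165.0 and 161.7 FPKM in *CDYL*-sh, and *MCM6* at 21.0 and 17.2 FPKM and at 27.1 and 25.6 FPKM. The ratio of the FPKM of *MCM7* to that of *MCM6* was thus 9.09 and 11.3 in control and 6.09 and 6.31 in *CDYL*-sh. The ratio of *MCM2* to *MCM6* was 5.08 and 6.16 in control and 2.85 and 2.56 in *CDYL*-sh.

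**Figure D2:**
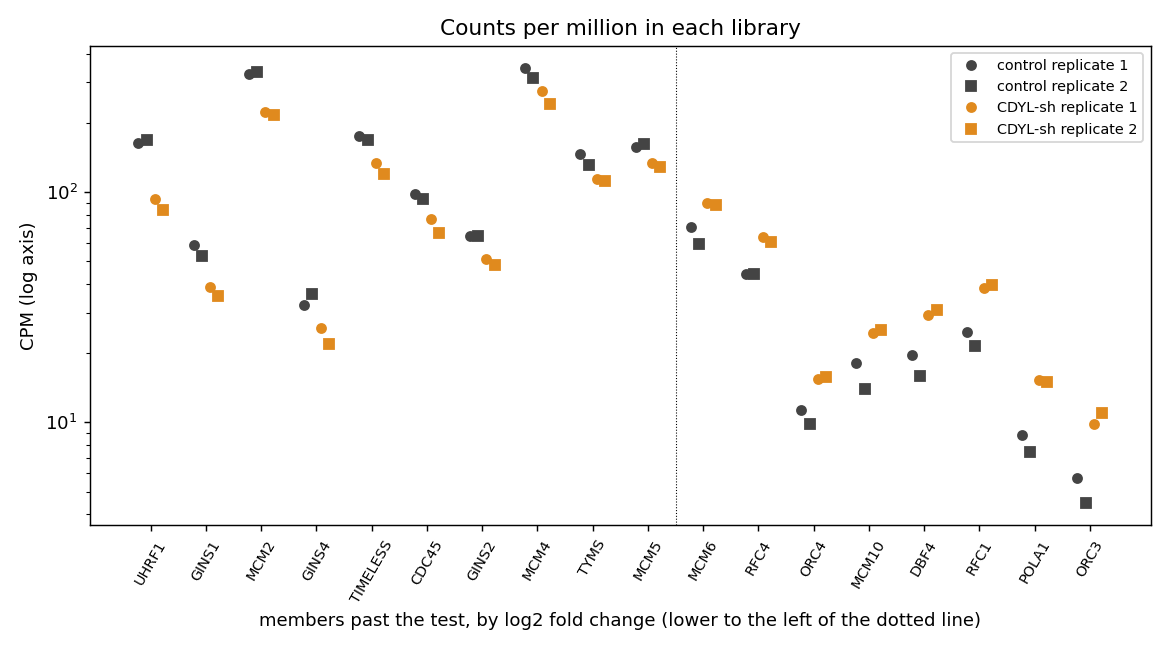
CPM, on a log axis, of the 18 members past the test in each of the 2 control and 2 *CDYL*-sh libraries. In all 18 the groups do not overlap, beside 64.3% of all tested genes. The 18 were picked by the test on these same counts, so this is description only. *UHRF1* goes from 163.2 and 168.4 to 92.98 and 83.52 CPM and *RFC1* from 24.59 and 21.37 to 38.46 and 39.38 CPM.

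Genes that act before or at the switch to the active helicase included higher members. *ORC3*, a subunit of the origin recognition complex (ENSG00000135336, chromosome 6, 87590067 to 87667453, + strand), was at 5.74 and 4.45 CPM in control and 9.82 and 10.97 CPM in *CDYL*-sh (log2 fold change 1.01, SE 0.19, adjusted p = 0.000953, edgeR). It was the member with the lowest mean level, 7.74 CPM, and its FPKM did overlap, with 6.94 and 3.62 in control and 6.14 and 8.73 in *CDYL*-sh. *ORC4* rose from 11.27 and 9.84 CPM to 15.42 and 15.82 CPM (log2 fold change 0.56, SE 0.16, adjusted p = 0.0130). The other ORC genes did not pass, with *ORC1* at 0.04, *ORC2* at -0.04, *ORC6* at -0.24 and *ORC5* at -0.31 on the log2 scale. *ORC6* had the highest FPKM of the complex in every library, 43.3 and 38.9 in control and 39.2 and 30.8 in *CDYL*-sh, while *ORC2* was at 4.95 to 5.86 FPKM.

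*DBF4*, the regulatory subunit of the kinase that fires licensed origins (ENSG00000006634, chromosome 7, 87876216 to 87909553, + strand), was at 19.57 and 15.94 CPM in control and 29.31 and 30.81 CPM in *CDYL*-sh. Both *CDYL*-sh libraries were above both controls (log2 fold change 0.76, SE 0.14, adjusted p = 0.000612, edgeR). Its catalytic partner *CDC7* was at 14.29 and 11.34 CPM in control and 16.39 and 16.95 CPM in *CDYL*-sh, a value of 0.38 (SE 0.16) that did not pass (adjusted p = 0.0847). *MCM10*, which helps the helicase to start and is no part of the ring, rose from 18.17 and 13.90 CPM to 24.42 and 25.10 CPM (log2 fold change 0.62, SE 0.15, adjusted p = 0.0044). None of the licensing regulators *CDC6*, *CDT1* and *GMNN* passed. *CDT1* had the largest value of them, 0.26 (SE 0.11, adjusted p = 0.0825), from 106.2 and 112.9 CPM in control to 122.2 and 140.4 CPM in *CDYL*-sh, while *GMNN*, its inhibitor, was at 0.17 and *CDC6* at -0.21.

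Of the 9 polymerase and primase genes, *POLA1* alone passed. It encodes the catalytic subunit of polymerase alpha (ENSG00000101868, chromosome X, 24693873 to 24996986, + strand) and was at 8.80 and 7.42 CPM in control and 15.35 and 14.95 CPM in *CDYL*-sh (log2 fold change 0.90, SE 0.16, adjusted p = 0.000714, edgeR). The *CDYL*-sh values lay well above both controls. The 3 genes whose products join it in the complex did not pass: *PRIM1* was at 0.17, *POLA2* at -0.15 and *PRIM2* at -0.16 on the log2 scale. Per length, *POLA1* was the lowest of all members in control, with 1.71 and 1.65 FPKM, and was at 3.57 and 3.09 FPKM in *CDYL*-sh. The ratio of the FPKM of *PRIM1* to that of *POLA1* was 37.8 and 33.9 in control and 19.3 and 22.6 in *CDYL*-sh. The members among the subunits of polymerases delta and epsilon spanned -0.22 (*POLE3*) to 0.18 (*POLE2*), with *POLD1* at -0.16, *POLD3* at -0.02 and *POLD2* at 0.06. Of the subunits that are not on the list, and named here after their values were seen, *POLE*, the catalytic subunit of epsilon, fell (-0.38, SE 0.10, adjusted p = 0.0123, edgeR), and *POLE4* (0.52, SE 0.14, adjusted p = 0.0104) and *POLD4* (1.01, SE 0.16, adjusted p = 0.000195) rose.

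The clamp loader showed the same lack of a common direction. *RFC1*, its large subunit (ENSG00000035928, chromosome 4, 39287456 to 39366375, - strand), was at 24.59 and 21.37 CPM in control and 38.46 and 39.38 CPM in *CDYL*-sh, the smallest adjusted p of the higher members (log2 fold change 0.76, SE 0.12, adjusted p = 0.000284, edgeR). *RFC4* rose from 44.23 and 43.97 CPM to 63.98 and 61.00 CPM (log2 fold change 0.50, SE 0.11, adjusted p = 0.00263). In both genes the groups stood clear of each other. *RFC2* was at 0.25 (SE 0.10, adjusted p = 0.0771), *RFC5* at -0.27 (SE 0.12, adjusted p = 0.0986) and *RFC3* at -0.31 (SE 0.14, adjusted p = 0.0999), none of which passed. *PCNA*, the clamp that RFC loads and the member with the highest control FPKM, was at 279.2 and 270.8 FPKM in control and 281.4 and 238.0 FPKM in *CDYL*-sh. Its groups overlapped, and its log2 fold change was -0.09 (SE 0.11, adjusted p = 0.560).

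**Figure D3:**
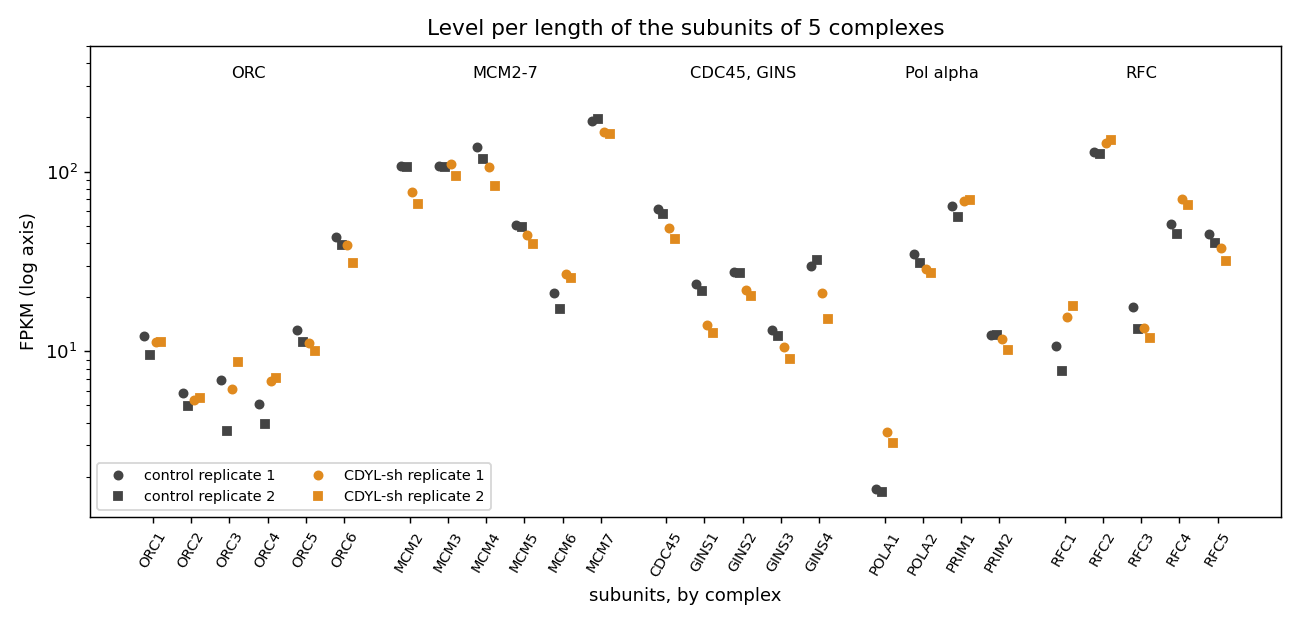
FPKM, on a log axis, of the subunits of the ORC, MCM, CDC45-GINS, polymerase alpha-primase and RFC complexes in each of the 4 libraries. Subunits of one complex differ severalfold per length, as *MCM7* at 191.1 and *MCM6* at 21.0 FPKM in control replicate 1, and *CDYL*-sh points lie above control for some subunits and below for others.

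At the fork itself, *TIMELESS*, which holds helicase and polymerase together and protects stalled forks, fell from 174.7 and 167.9 CPM to 134.4 and 120.4 CPM (log2 fold change -0.43, SE 0.10, adjusted p = 0.00584, edgeR). Its partner *TIPIN* was at -0.09 (SE 0.14, adjusted p = 0.685) and *CLSPN*, which relays the fork checkpoint, at 0.26 (SE 0.16, adjusted p = 0.251). *TYMS*, thymidylate synthase, was at 145.9 and 131.2 CPM in control and 114.1 and 112.2 CPM in *CDYL*-sh, a small decrease close to the threshold (log2 fold change -0.29, SE 0.10, adjusted p = 0.0473). *RRM2* and *RRM1*, the subunits of ribonucleotide reductase, had values of -0.24 and -0.10 that did not pass. The control libraries differed from each other in *RRM2*, with 294.7 and 236.7 CPM, more than the *CDYL*-sh libraries, with 228.7 and 221.2 CPM.

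The single-strand binding genes *RPA1*, *RPA2* and *RPA3* were at -0.09, -0.14 and 0.17 on the log2 scale, and the Okazaki fragment enzymes *FEN1* and *LIG1* at -0.11 and -0.23, and none passed. The CAF-1 subunits did not pass either: *CHAF1A* was at 106.3 and 104.9 CPM in control and 88.12 and 89.54 CPM in *CDYL*-sh (-0.25, SE 0.10, adjusted p = 0.0800, edgeR), and *CHAF1B* was at -0.16. *E2F1*, the S phase transcription factor, was at 169.2 and 180.9 CPM in control and 199.4 and 230.2 CPM in *CDYL*-sh. Its groups did not overlap, and its value of 0.29 (SE 0.11) lay just outside the threshold (adjusted p = 0.0507). Its call depended on the setting: it was higher with DESeq2, limma-voom and upper quartile normalization, and did not pass with RLE normalization or on FPKM.

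Higher and lower members covered different ranges of base composition. GC content, taken from the Ensembl canonical transcript of each gene, was 37.4 to 44.03% in the 8 higher members. It was 41.9 to 57.4% in the 10 lower members, and the medians were 42.3% and 50.1%. The same lean was present across all genes. Of the 5567 tested genes under 45% GC, 22.1% were higher and 6.34% lower. Of the 2631 between 45 and 50% GC, 9.16% were higher and 13.0% lower. Of the 7630 at 50% GC or above, 9.16% were higher and 16.2% lower. Of the 25 members under 45% GC, 8 were higher and 1, *GINS1*, was lower. Of the 11 members between 45 and 50% GC, 4 were lower, and of the 18 at 50% or above, 5 were lower, with no higher member in either class. A fit with offsets for GC content and length kept 16 of the 18 calls. It lost *ORC4* (0.29, SE 0.12, adjusted p = 0.0843, edgeR) and *MCM5* (-0.16, SE 0.07, adjusted p = 0.110). With these offsets 10 members were higher (15.8% of tested genes were) and 17 lower (18.0% of tested genes were), the added ones being *RFC2*, *E2F1* and *CDT1* among the higher and *ORC6*, *CDC6*, *RFC5*, *PCNA*, *RFC3*, *ORC5*, *RRM2* and *GINS3* among the lower. The 7 higher members that kept their call had smaller values with the offsets, as *DBF4* from 0.76 to 0.55 and *RFC1* from 0.76 to 0.63. Among the lower members *UHRF1* went from -0.91 to -0.78, while *GINS1* grew in size, from -0.59 to -0.69. What part base composition had in the changes was not tested.

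**Figure D4:**
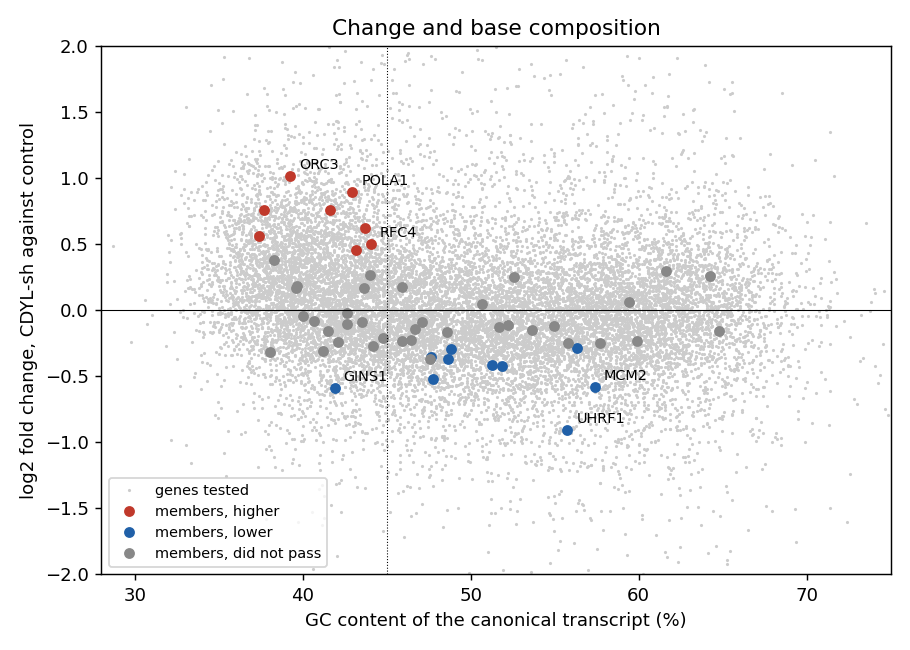
Log2 fold change of the 54 members against the GC content of their canonical transcripts in percent, marked as higher, lower or not passed. The 8 higher members lie between 37.4 and 44.03% GC, and lower members lie between 41.9 and 57.4%.

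Some calls depended on a single library. Without *CDYL*-sh replicate 2, the library with the lowest total, 7 members were higher (6.93% of tested genes were) and 3 lower (5.52% were), the latter being *UHRF1*, *GINS1* and *MCM2*. Without control replicate 1, 9 were higher (12.0% of tested genes) and 4 lower (8.27%), namely the same 3 and *GINS4*. Values kept their size more than their call, as for *CDC45* at -0.32 (adjusted p = 0.153, edgeR) without *CDYL*-sh replicate 2 and -0.39 (adjusted p = 0.0660) without control replicate 1. Without control replicate 2, *MCM6* and *MCM5* no longer passed, and 7 members were higher (12.4% of tested genes) and 13 lower (11.5%). On the authors' FPKM, with limma on log2(FPKM + 1), no member was higher (1.44% of tested genes were) and *UHRF1* and *GINS1* were lower (1.52% of tested genes were). *UHRF1* and *GINS1* passed in all 17 alternatives tried, with log2 values between -1.005 and -0.782 and between -0.76 and -0.52. Another 7 members, *MCM2*, *DBF4*, *MCM10*, *ORC3*, *POLA1*, *RFC1* and *RFC4*, passed in every alternative but those on FPKM. The least stable calls were *MCM5*, lost in 9 of the 17, *TYMS*, lost in 7, and *ORC4*, lost in 5, and all of these were lost without *CDYL*-sh replicate 1 and without *CDYL*-sh replicate 2.

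**Figure D5:**
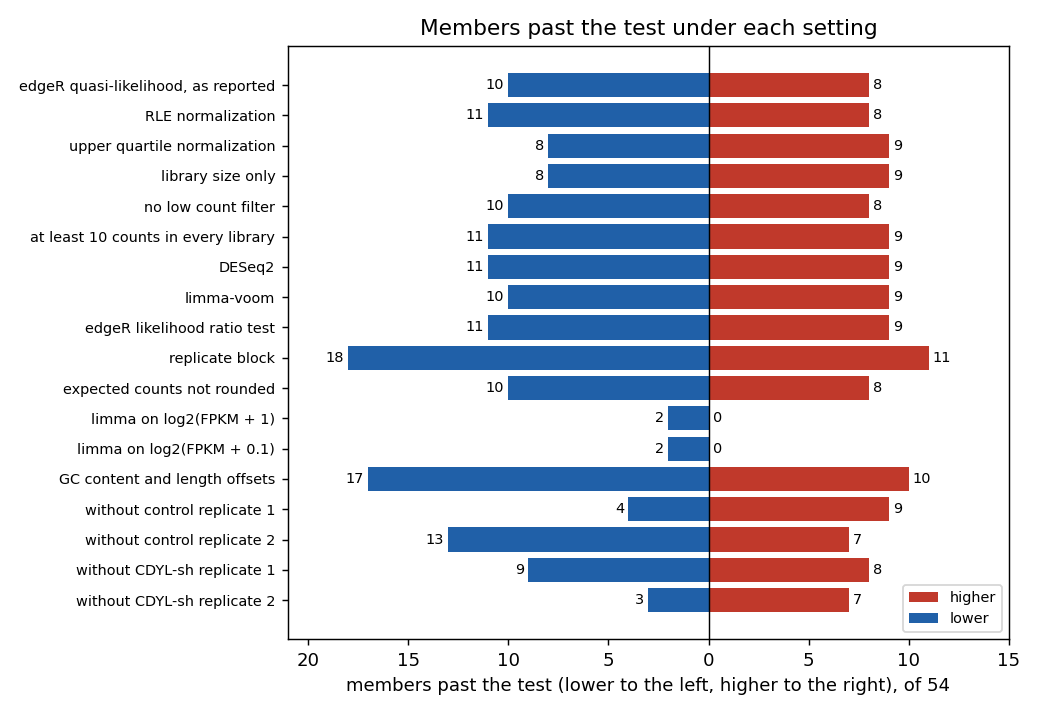
Number of members called higher and lower in the main fit and in the 17 alternatives. Higher members range from 7 to 11 outside the fits on FPKM, where there are 0, and lower members from 2 to 18.

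Overlapping genes limit a few values, since the strand setting of the counting is not given in the sources used here. *TYMS* shares 967 exonic bases (39.9% of all its annotated exonic bases) with *ENOSF1* on the opposite strand. *GINS4* shares 21.0% and *MCM2* 23.6% of their annotated exonic bases with a non-coding gene on the opposite strand, and *ORC4* shares 431 bases with *ACVR2A*. Of the 54 members, 37 had whole counts (within 1e-06) in every library, and *ORC4*, *ORC6*, *MCM7*, *GINS3*, *GINS4*, *POLA2*, *PRIM1*, *TYMS* and *UHRF1* had whole counts in none.

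Beyond the 54 members, 128 other genes of the same pathways were read from lists chosen by function, of which 24 rose, 21 fell and 83 did not pass (median log2 fold change -0.01). The risers were 18.8% and the fallers 16.4% of these genes, beside 13.6% and 12.1% of all tested genes and 15.4% and 16.7% of genes whose mean reached 10 CPM. The counts of the separate lists below are to be read against the same shares. Of 23 other replication fork and initiation genes, 7 rose and 2 fell, among them *TOP2A*, which untangles copied DNA (0.98, SE 0.12), *POLD4* (1.01, SE 0.16) and *LRWD1*, an ORC-associated protein (-0.67, SE 0.11). In nucleotide supply, 4 of 18 other genes fell and none rose, with *CAD*, which starts pyrimidine synthesis, at -0.81 (SE 0.11), *CTPS1* at -0.43 (SE 0.11) and *DCK* at -0.43 (SE 0.11). Of 19 other DNA methylation genes, 5 fell and 1 rose, led by the de novo methyltransferase *DNMT3A* (-0.74, SE 0.11) and the demethylation genes *TET3* (-0.69, SE 0.11) and *TDG* (-0.58, SE 0.12). The histone supply and chaperone list gave 1 higher and 2 lower of 12, namely *SUPT16H*, a subunit of FACT (0.57, SE 0.12), *DNAJC9* (-0.44, SE 0.11) and *HIRA* (-0.40, SE 0.11).

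Regulators of the S phase programme moved in both directions as well. Of 18 E2F, DP, RB and MuvB genes, 2 rose and 4 fell: the pocket proteins *RBL1* and *RBL2* were at 0.84 (SE 0.16) and 0.77 (SE 0.13), and *E2F6*, a repressor, at -0.77 (SE 0.15). Of 18 licensing turnover and checkpoint genes, 5 rose, with *ATR* at 0.92 (SE 0.20) and *RAD17* at 0.74 (SE 0.16), and 2 fell, with *CDC25B* at -0.50 (SE 0.10). Among 20 genes of G2 and M phase, 8 rose and 2 fell, with *HMMR* at 1.02 (SE 0.14), *KIF11* at 0.78 (SE 0.14) and *CKAP2* at 0.67 (SE 0.13). Their summed level was 2173 and 1974 CPM in control and 2193 and 2137 CPM in *CDYL*-sh, and these groups overlapped. Like those of the 54 members, the sums of the E2F, DP, RB and MuvB list fell (1188 and 1134 against 1022 and 995 CPM). So did those of the licensing turnover and checkpoint list (1209 and 1142 against 1090 and 1060 CPM). The sums of the other DNA methylation list also fell (1073 and 1018 against 903.4 and 909.2 CPM). Those of the other replication fork and initiation list rose (1373 and 1335 against 1431 and 1485 CPM). The remaining pathway lists overlapped. None of 12 reference genes passed, their values lying between -0.17 and 0.11. In the marker lists, 3 of 10 epithelial genes rose (*KRT19* 0.70, *KRT7* 0.53, *CLDN4* 0.52) and 1 fell (*KRT18*, -0.34). Of the other markers, 1 of 4 tested stromal genes fell (*COL1A1*, -0.82) and 1 of 2 tested immune genes rose (*CD68*, 0.998). Of 4 tested endothelial genes, 1 rose (*PECAM1*, 1.65).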

How the data were processed

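RNA-seq was done on 4 libraries of Ishikawa cells, 2 per group. As the study's methods state, libraries were made with the TruSeq kit, sequenced as paired ends and aligned with TopHat, and the notes on processing given by the submitters list RSEM and edgeR beside TopHat, with GRCh38.p10 as the build. The annotation release is not given in the sources used here. The deposited expected counts are reads per gene as estimated by the authors and need not be whole, and the deposited FPKM are the authors' levels scaled to gene length and sequencing depth. Symbols were found for 98.07% of the 58522 identifiers, and 289 loci carried no Ensembl name.

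Expected counts were rounded, filtered with filterByExpr (16158 genes), normalized by TMM and tested with edgeR 4.0.16 (glmQLFit, glmQLFTest, no other term) in R 4.3.3, with Benjamini-Hochberg adjustment over all tested genes and a threshold of 0.05. The standard error was taken as the log2 fold change divided by the square root of F. Total counts of 22341852 to 27688447 leave counting error below the spread between replicates, whose common dispersion was 0.00971. Replicates differed beyond sampling noise (chi-square per degree of freedom 16.8 and 13.2) and were kept apart. The script was tested on simulated data.

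The 54 members and the other gene lists were chosen with earlier results of these data known. Every member is accounted for, and each one past the test is named with its libraries. Of each other list at most 3 genes with the smallest adjusted p are named, plus *CDYL* and the marker sums. Beyond this rule, *POLE*, *POLE4* and *KRT18* were named after their values were seen, and *COL3A1*, *DCN* and *CD3E* for their levels. Promoters are those of the members with the smallest adjusted p in each direction, not on chromosome 8. Alternatives were other normalizations and filters, DESeq2 1.42.0 (without NA adjusted p-values), limma 3.58.1 on voom values and on log2(FPKM + 1) or log2(FPKM + 0.1) for genes whose mean FPKM reached 0.5, GC content and length offsets (mgcv 1.9.3), a replicate block and leaving out each library. Positions, overlaps and GC content came from GENCODE release 44 on GRCh38. Figures used matplotlib 3.10.9.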

Additional observations from a re-analysis of the deposited data

How the results depend on the processing

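With 2 libraries a group, calls near the threshold are unsure. *CDYL* passed in all 17 alternatives (-2.42 to -2.05). Against 8 members higher and 10 lower, the fits on FPKM with pseudocounts of 1 and 0.1 gave 0 and 0 higher and 2 and 2 lower, GC and length offsets gave 17 lower, and leaving out single libraries gave 7 to 9 higher and 3 to 13 lower. For the 128 other pathway genes, with 45 past the test, the fits on FPKM gave 4 and 3, and leaving out single libraries 29 (without *CDYL*-sh replicate 2) to 46. The cause was not tested. The labels do not say whether the replicate numbers shared by the groups mark a pairing. The deviations of same-numbered libraries correlated at 0.03 over the genes. With 2 libraries a group this cannot decide whether they were paired. The replicate block gave 11 members higher (17.4% of tested genes were) and 18 lower (16.0% were). Of the 918 values of members under an alternative, 16 changed sign, all of members that had not passed. With GC and length offsets these were *MCM3* (0.0021), *PRIM1* (-0.0732) and *POLE2* (-0.0314), with upper quartile scaling *POLD3* (0.0009), and with FPKM at pseudocounts of 1 and 0.1 *ORC2* (0.0125 and 0.0153) and *POLD3* (0.1322 and 0.1413). Leaving out single libraries, the values ran from -0.1028 to 0.1972 for *ORC1*, from -0.135 to 0.048 for *ORC2*, from -0.0091 to 0.108 for *POLD2*, from -0.1168 to 0.0689 for *POLD3*, from -0.2099 to 0.0028 for *PCNA*, from -0.004 to 0.3224 for *RPA3* and from -0.2572 to 0.0603 for *RRM1*.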
